A study of Mus musculus with 3 samples.

Results

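The regions described here are stretches of chromatin that carried H3K27me3 and no detected RNA polymerase II in F123 cells. Members were chosen by 2 measured values, their width and their overlap with polymerase: H3K27me3 regions under 80 kb wide that shared no base pair with a Pol2-S5p region or a Pol2-S7p region. The rule gave 6604 members of 17342 H3K27me3 regions. Among the 16748 H3K27me3 regions under 80 kb the members were 39.4%, a share that the rule itself sets. They covered 31.5 Mb, which was 1.16% of the chromosomes and 13.3% of the length of all H3K27me3 regions. Chromatin immunoprecipitation sequencing was carried out on F123 mouse embryonic stem cells, a male F1 hybrid line of S129/Jae and Cast, with 1 library each for H3K27me3, Pol2-S5p and Pol2-S7p. The cells were grown on inactivated feeder fibroblasts and then passaged without feeders before harvest. All 3 libraries come from this 1 untreated line, and no library had a replicate, so no test was made and every interval is a 95% interval that covers counting error only. Positions are in mm10.

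H3K27me3 is the trimethylation of lysine 27 of histone H3, which Polycomb repressive complex 2 writes and Polycomb repressive complex 1 can bind. In embryonic stem cells it is known from the CpG islands of developmental genes, many of which also hold polymerase phosphorylated at serine 5 of its C-terminal repeats (Pol2-S5p), while serine 7 phosphorylation (Pol2-S7p) is known from productively transcribed genes. The files list regions and not reads, so a member had no called polymerase region, which does not show that polymerase was absent. A region called over a population of cells with 2 haplotypes also cannot tell a mark in few cells or on 1 haplotype from a weak mark in all of them. As a check of the label, all 7 of 7 embryonic stem cell markers (Pou5f1, Nanog, Sox2, Klf4, Zfp42, Esrrb and Dppa5a) had Pol2-S5p and Pol2-S7p at a start. Of these 7, 3 also had H3K27me3 at a start. Of 7 fibroblast markers, 3 had Pol2-S5p and 2 had Pol2-S7p, of 5 neuron markers 4 and 3, and of 4 blood markers 1 and 1, so that polymerase also lay at starts of markers of other cells. Among all protein-coding genes 70.5% had polymerase at a start, so these small counts are a weak check.

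The sequences below are examples from chosen members in the mm10 reference, at promoters, inside genes and between genes. Each is a 200 bp bin of a member on the plus strand, taken outside exons where the ratio of observed to expected CpG in that member was highest, and the capitals mark CpG. The bins are thus the upper end of their members and not typical of them, and the median ratio over whole members was 0.240. The Pax6 bin (chr2:105681400-105681599) lay in an intron of the gene at a further start, the Gria2 bin (chr3:80803000-80803199) just upstream of its gene and the Cdh8 bin (chr8:99415600-99415799) in an intron close to the start. The Col6a1 bin (chr10:76732000-76732199) lay upstream of its gene. The Zfhx3 bin (chr8:107945000-107945199) and the Slit3 bin (chr11:35707000-35707199) came from intronic stretches of members in gene bodies, those with the highest score in each gene. The others came from the members between genes with the highest scores whose central 75 bases occur once, on chromosome 11 (chr11:3101600-3101799) and chromosome 9 (chr9:124257200-124257399). Only exact matches were counted, so similar copies could remain. Repeats masked 58.3% of the chromosome 11 member and 78.4% of the chromosome 9 member.
Pax6: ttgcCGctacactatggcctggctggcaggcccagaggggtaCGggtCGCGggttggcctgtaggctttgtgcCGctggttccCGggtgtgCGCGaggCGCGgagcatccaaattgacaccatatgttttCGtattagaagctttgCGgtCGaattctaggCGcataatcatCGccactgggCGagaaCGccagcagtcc
Gria2: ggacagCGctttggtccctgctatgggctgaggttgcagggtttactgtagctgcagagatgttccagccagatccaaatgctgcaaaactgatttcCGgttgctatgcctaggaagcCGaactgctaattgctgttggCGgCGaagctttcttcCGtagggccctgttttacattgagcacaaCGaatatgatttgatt
Cdh8: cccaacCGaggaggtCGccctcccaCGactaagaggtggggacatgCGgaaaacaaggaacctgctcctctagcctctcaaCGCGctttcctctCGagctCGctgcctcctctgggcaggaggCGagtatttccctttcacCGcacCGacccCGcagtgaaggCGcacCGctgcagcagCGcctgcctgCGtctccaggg
Col6a1: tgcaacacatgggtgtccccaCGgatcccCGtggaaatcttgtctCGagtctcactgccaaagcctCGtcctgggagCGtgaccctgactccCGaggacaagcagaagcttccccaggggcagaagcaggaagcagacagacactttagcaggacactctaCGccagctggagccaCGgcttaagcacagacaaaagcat
Zfhx3: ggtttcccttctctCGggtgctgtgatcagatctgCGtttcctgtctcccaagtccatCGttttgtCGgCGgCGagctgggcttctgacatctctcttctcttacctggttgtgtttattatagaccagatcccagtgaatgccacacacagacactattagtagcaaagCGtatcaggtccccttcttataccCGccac
Slit3: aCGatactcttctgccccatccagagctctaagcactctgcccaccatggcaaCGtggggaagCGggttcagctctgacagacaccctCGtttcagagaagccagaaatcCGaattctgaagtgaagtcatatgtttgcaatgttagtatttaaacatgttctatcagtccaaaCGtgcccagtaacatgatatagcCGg
Chromosome 11 member: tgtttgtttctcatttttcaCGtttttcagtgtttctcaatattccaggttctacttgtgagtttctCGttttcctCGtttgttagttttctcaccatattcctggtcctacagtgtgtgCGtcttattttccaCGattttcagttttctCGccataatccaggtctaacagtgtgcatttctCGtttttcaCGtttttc
Chromosome 9 member: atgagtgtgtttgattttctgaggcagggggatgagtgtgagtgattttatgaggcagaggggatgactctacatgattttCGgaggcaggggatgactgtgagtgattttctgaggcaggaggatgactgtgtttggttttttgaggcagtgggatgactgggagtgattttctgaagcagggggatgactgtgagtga
The Pax6 bin was centred at -212 bp from the nearest annotated start and had a CpG ratio of 0.972 at 59.5% G+C. The Cdh8 bin was centred 619 bp past its start with a ratio of 0.786 at 64.5%, and the Gria2 bin at -265 bp with 0.579 at 49.5%. Col6a1 had its bin at -5932 bp, with a ratio of 0.487 at 57.5% G+C. The Zfhx3 bin had a ratio of 0.646 with 8 CpG and the Slit3 bin 0.626 with 7. The chromosome 11 bin had a ratio of 1.29 at a G+C share of only 38%, with 68 of 200 bases masked as repeats, and the chromosome 9 bin held 1 CpG, with 130 bases masked.

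The first comparison asked how members differed in extent and in the score of the peak finder from the H3K27me3 regions under 80 kb that touched polymerase. Members were narrow and low in score. The median width was 2000 bp (interval 2000 to 2200 bp, quartiles 1000 and 5000 bp) in members, 3800 bp in the 2716 regions with Pol2-S5p and no Pol2-S7p, and 5200 bp in the 7002 regions with both polymerase marks. A wide region has more room to meet a polymerase region, so width and the rule are not independent. The smaller set of 426 regions with Pol2-S7p and no Pol2-S5p had a median of 1600 bp. The median score, which the rule did not use and whose unit is not stated, was 6.84 (6.76 to 6.93) in members and 9.64 (9.49 to 9.76) in the 10144 regions touching polymerase.

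By width class, members made up 62.3% (60.1 to 64.4) of H3K27me3 regions under 1 kb, 50.0% of those from 1 to 2 kb, 40.3% from 2 to 5 kb, 35.1% from 5 to 10 kb, 27.4% from 10 to 20 kb and 13.5% (12.1 to 15.0) from 20 to 80 kb. The score separated the regions further within each class. Among regions under 1 kb, members made up 77.7% (75.0 to 80.2) of those below the median score of the class and 46.8% (43.7 to 49.9) of those at or above it. Among regions from 20 to 80 kb these shares were 20.3% (17.9 to 22.7) and 6.84% (5.43 to 8.49). With the scores under 80 kb cut at their quartiles, members made up 60.4% of the regions with the lowest scores and 17.5% of those with the highest.

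**Figure D1:**
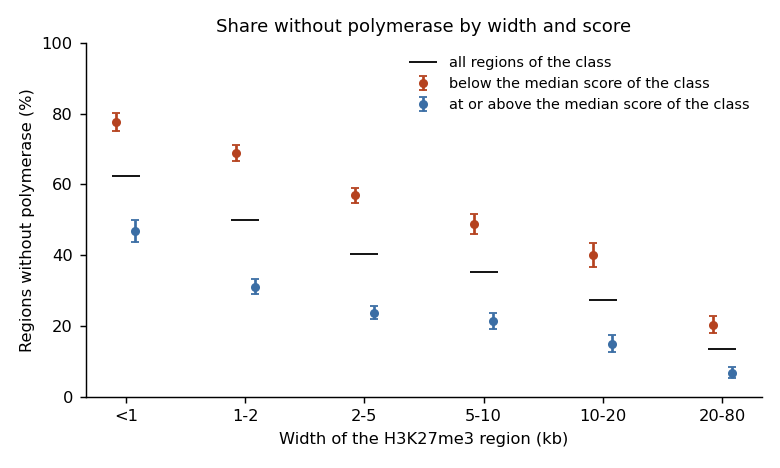
Share of H3K27me3 regions under 80 kb that had no polymerase (y axis, percent) by width class (x axis, kb), for regions below and at or above the median score of their class, with exact 95% intervals, and for the whole class as black dashes. The share goes down from 62.3% to 13.5% with width, and regions below the median score lie above the others in each of the 6 classes.

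At the edges of the rule, 22 members abutted a polymerase region, with a median width of 500 bp, and 117 members lay within 1 kb of one, with a median width of 1400 bp and a median score of 6.32. Outside it, 117 regions shared 200 bp with polymerase, the smallest overlap the grid of the files allows, with a median score of 6.47. Their median and minimum width was 200 bp, so most of them were wholly covered by polymerase. In 768 regions under 80 kb that touched polymerase, it covered less than 10% of the region. At the width limit, 21 members of 60 kb or more reached 77.6 kb, and 14 polymerase-free regions from 81 to 285.4 kb were left out.

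The second comparison asked where members lay relative to genes. The largest share lay between genes: 52.3% (51.1 to 53.5) touched neither a gene body nor a promoter window, which is the 2 kb centred on an annotated transcription start site (TSS) of a protein-coding or lncRNA gene. This share was under 50% with only the autosomes (49.5%), regions whose central 75 bases occur once (47.5%) or H3K27me3 regions at or above the median score (44.5%). A further 28.5% (27.4 to 29.6) lay in a gene body away from any start, and 19.3% (18.3 to 20.2) touched a promoter window. Regions that touched polymerase had 59.8% (58.8 to 60.8) at a promoter window, 16% in gene bodies and 24.2% (23.4 to 25) between genes. Among these, the 426 regions with Pol2-S7p alone went the other way, with 14.1% (10.9 to 17.8) at a promoter window and 58.9% (54.1 to 63.6) between genes. Of the 1880 members in gene bodies, 1202 (63.9%, 61.7 to 66.1) touched no exon, so that they were intronic. This share was 60.1% (57.7 to 62.5) in gene-body regions touching polymerase, and 81.7% (73.5 to 88.3) in those with Pol2-S7p alone.

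This difference in place was present within each width class. Place and the rule are not independent, since 70.5% of protein-coding genes had polymerase at a start, and width classes do not remove this link. Under 1 kb, 5.53% (4.34 to 6.92) of members and 15.8% (13.3 to 18.5) of regions touching polymerase were at a promoter window. From 2 to 5 kb the shares were 23.7% (21.8 to 25.7) and 61.4% (59.6 to 63.3), and from 20 to 80 kb 54.5% (48.7 to 60.2) and 86.8% (85.2 to 88.3). Members at promoters were also wider than the others, with a median of 3600 bp against 1800 bp in gene bodies and 1800 bp between genes, and their median score was 8.10, against 6.78 and 6.48. Wide regions reach more windows, so the width and the place of a region are linked.

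**Figure D2:**
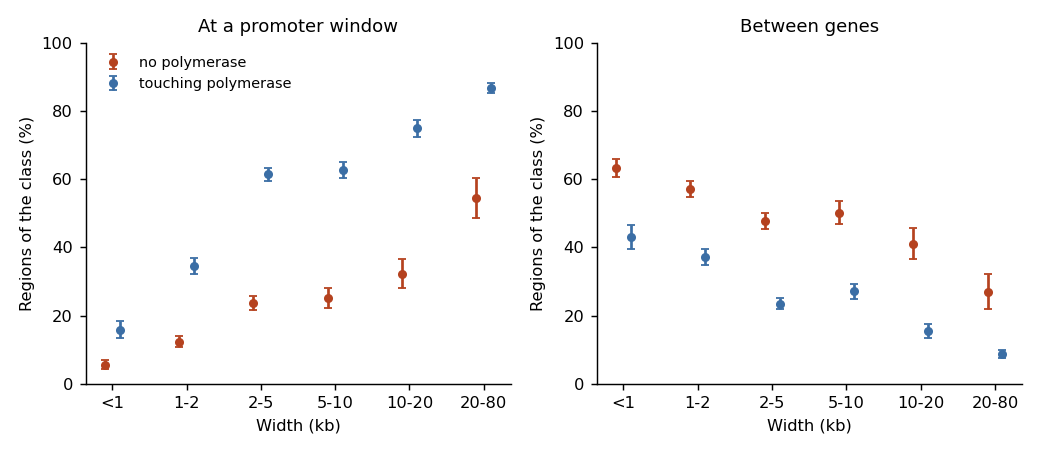
Share of H3K27me3 regions at a promoter window (left) and between genes (right), in percent (y axis), by width class in kb (x axis), for regions without and with polymerase, with exact 95% intervals. In all 6 classes the regions without polymerase are less often at promoters (5.53% against 15.8% under 1 kb) and more often between genes.

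Members between genes were not close to the starts of genes. Their median distance to the nearest start of a protein-coding gene was 64956 bp (60417 to 70300 bp), and 40.3% (38.7 to 42.0) were over 100 kb away. Regions between genes that touched polymerase had a median of 66272 bp (59530 to 72383 bp), an interval that overlaps the former. The gene with the nearest start had polymerase at a start for 68.4% (66.8 to 69.9) of the members between genes, beside 70.5% of all protein-coding genes and 64.7% (62.8 to 66.6) for the regions between genes that touched polymerase. In gene bodies these shares were 70.7% (68.6 to 72.7) for members and 84% (82.2 to 85.8) for regions touching polymerase.

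The third comparison asked which sequence features members shared. The rule used none directly, but it is linked to place, and CpG differed by place. Members were poorer in CpG than the regions with Pol2-S5p, and their median ratio lay above the value of the chromosomes. The values of the chromosomes are pooled over all bases and are not medians over regions. The median ratio of observed to expected CpG was 0.240 (0.237 to 0.244) in members, 0.290 (0.284 to 0.297) in regions with Pol2-S5p and no Pol2-S7p, and 0.340 (0.335 to 0.345) in regions with both marks, beside 0.190 over all chromosomes. Regions with Pol2-S7p alone had a lower median than members, 0.209 (0.198 to 0.221). The median G+C share was 47.4% in members and 50.0% in regions touching polymerase, beside 41.7% over the chromosomes. On 21 of 21 chromosomes the median CpG ratio of members was the lower of both groups. On the autosomes it ranged from 0.227 to 0.272 in members and from 0.296 to 0.347 in regions touching polymerase, so the chromosome medians did not overlap.

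A CpG-rich bin, which is a 200 bp bin with at least 50% G+C and a CpG ratio of at least 0.6, was present in 31.5% (30.4 to 32.6) of members and in 73.2% (72.3 to 74.0) of regions touching polymerase, although in only 19% (15.4 to 23.1) of those with Pol2-S7p alone. Of all single bins of the chromosomes 0.948% met these limits, a share that cannot be compared directly with shares of regions, which mostly hold several bins. Within the width classes the difference was again present. Under 1 kb a rich bin lay in 6.30% (5.04 to 7.77) of members and 18.6% (15.9 to 21.5) of the others. The shares were 19.9% (18 to 21.8) and 51.2% (48.9 to 53.5) from 1 to 2 kb, and 74.1% (68.7 to 78.9) and 94.4% (93.3 to 95.4) from 20 to 80 kb. The CpG ratio itself did not separate the groups under 1 kb, where the medians were 0.190 (0.179 to 0.201) and 0.194 (0.176 to 0.217) and members were lower on 10 of 21 chromosomes. From 2 to 5 kb they were 0.277 (0.272 to 0.283) and 0.432 (0.425 to 0.441), with members lower on 21 of 21 chromosomes. By place, the share of members with a CpG-rich bin was 57.5% at promoters, 28.6% in gene bodies and 23.5% between genes.

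**Figure D3:**
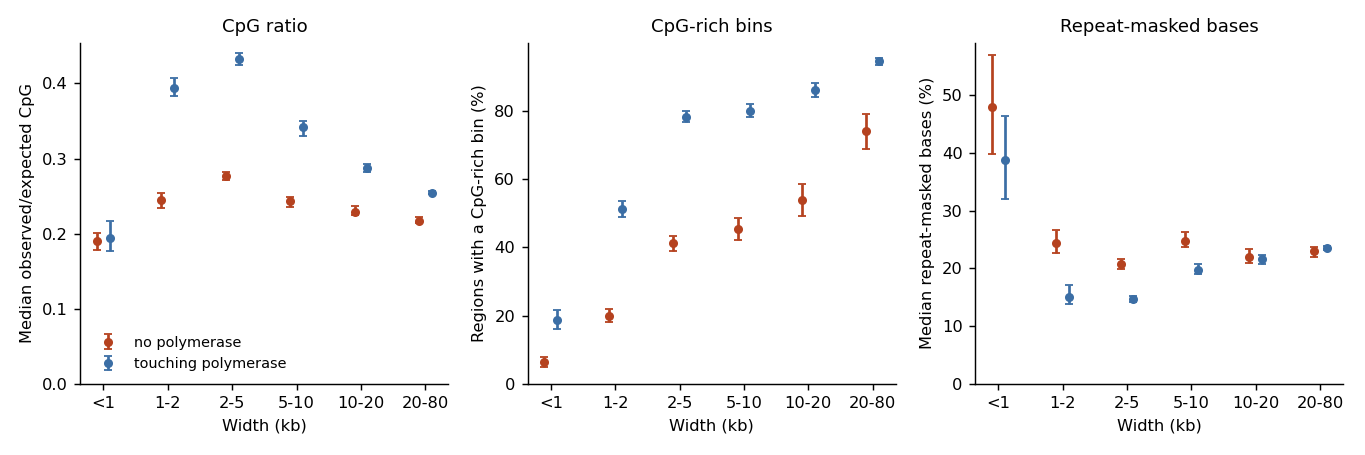
Median observed to expected CpG (left), percent of regions with a CpG-rich bin (middle) and median percent of repeat-masked bases (right) by width class in kb (x axis), for regions without and with polymerase, with 95% intervals. The CpG ratio of regions without polymerase is lower in each class from 1 kb on, such as 0.277 against 0.432 from 2 to 5 kb, and from 1 to 10 kb its repeat-masked shares are higher, with intervals that do not overlap.

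Repeats split the members into unlike sets. The median share of repeat-masked bases was 23.9% (23.3 to 24.5) in members and 20.03% (19.6 to 20.5) in regions touching polymerase. Of all known bases in the chromosomes 36.4% were masked, a pooled share that cannot be compared directly with these medians. The median of members hides that 4729 members (71.6%) were under 50% masked, while 1190 (18%, 17.1 to 19) were at 90% or more. The latter share was 11.4% (10.8 to 12.1) in regions touching polymerase. It was 41.3% (36.6 to 46.2) in those with Pol2-S7p alone, whose median masked share was 64.3%. Members at 90% or more were narrow, with a median of 1200 bp, lay a median of 57000 bp from polymerase against 23600 bp for those under 50%, and 80.7% of them lay between genes and 1.09% at a promoter window. Only 417 of these 1190 members (35.0%) had central 75 bases, the length of the reads, that occur once in the chromosomes, against 96.1% of members under 50%. Over all members this share was 82.8% (81.9 to 83.7), and 84.4% (83.7 to 85.1) in regions touching polymerase. Reads from sequences with further copies cannot be placed with certainty, and what this did to the region calls was not tested.

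The sex chromosomes stood apart from the autosomes. On the 19 autosomes members made up between 35.3% and 46.5% of H3K27me3 regions under 80 kb, with a median of 38.9% and the highest share on chromosome 10 (43.1 to 50.0). The X chromosome had 50.8% (47.6 to 53.9), or 505 of 995 regions, and the Y chromosome 28.1% (24.4 to 32), or 156 of 556. F123 is male, so both are present once per cell where an autosome is present as a pair. Median scores were low on both, at 4.09 for X members and 3.03 for Y members, against 6.41 to 8.49 on the autosomes. Of X members, 49.5% (45.1 to 54) were at least 90% repeat-masked, and of Y members 96.2%, against 5.54% to 21.6% on the autosomes. This was not particular to members. Of regions touching polymerase, 25.9% on X and 89.75% on Y were masked to this extent, against 7.29% over the autosomes. Among regions under 50% masked, members made up 34.1% (29.5 to 38.9) on X and 36.4% (35.6 to 37.3) on the autosomes. Among those at 90% or more they made up 66.3% (61.3 to 71.1) on X and 53.9% (51.3 to 56.5) on the autosomes. The central 75 bases of Y members had a median of 84 copies, and those of Y regions touching polymerase 60.5.

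**Figure D4:**
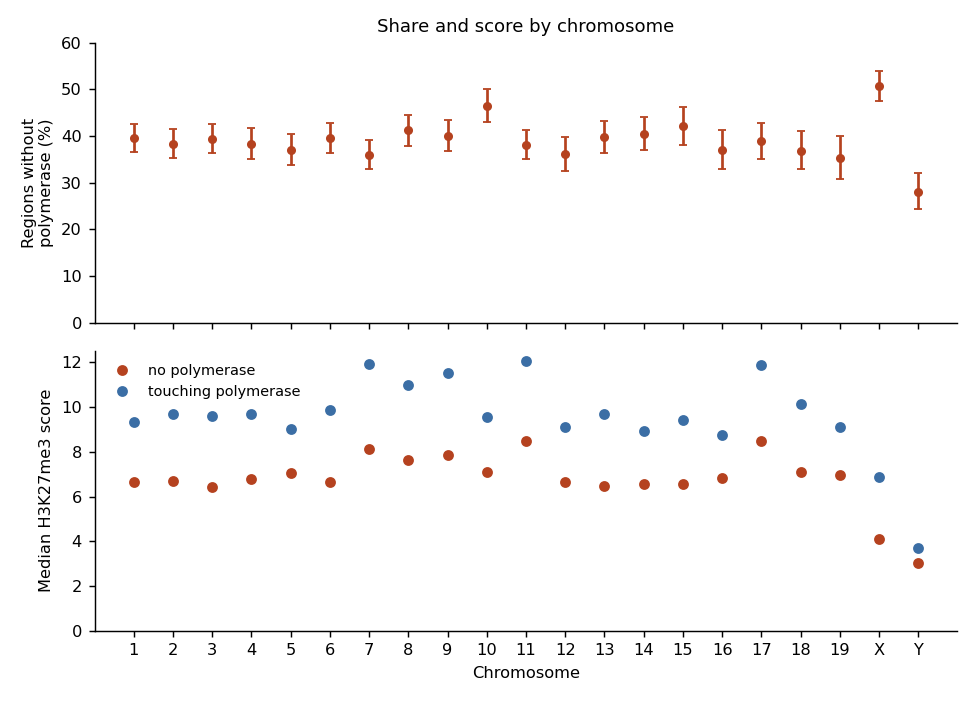
Share of H3K27me3 regions under 80 kb without polymerase with exact 95% intervals (top, y axis in percent) and median H3K27me3 score of regions without and with polymerase (bottom, score in an unstated unit) by chromosome (x axis). X has the highest share, 50.8%, and Y the lowest, 28.1%, and both have lower scores than every autosome in either group.

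Distances to polymerase were set by the rule only at their lower end. The median distance from a member to the nearest polymerase region was 28000 bp (26800 to 29200 bp), with quartiles of 10800 and 68200 bp, and 1051 members (15.9%) lay over 100 kb away. The farthest member lay 676200 bp from polymerase. The nearest region was Pol2-S5p for 53.1% of members, Pol2-S7p for 25.1%, and both at equal distance for 21.8%. Medians by place were close, at 25800 bp for members at promoters, 27300 bp in gene bodies and 29900 bp (27800 to 31600 bp) between genes. When only polymerase regions at or above their median score counted, the rule gave a different set of 11049 regions, with a median distance of 60200 bp.

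Most members stood alone. When H3K27me3 regions with gaps of at most 5 kb were joined into chains, 4711 members (71.3%) had no H3K27me3 neighbour, 1054 (16%) were chained to polymerase-free regions only, and 839 (12.7%, 11.9 to 13.5) were in a chain with a region that touched polymerase. Members of the last kind had a median score of 5.62 and a median CpG ratio of 0.202, against 7.40 and 0.254 for members that stood alone. The chains without polymerase included 5 members over 45200 bp at 1700024I08Rik on chromosome 13, 5 members over 25000 bp at Gimap8, a GTPase gene of lymphocytes, on chromosome 6, and 5 members over 15600 bp within Slit3, a secreted guidance cue of growing axons, on chromosome 11. A chain of 4 members over 56200 bp ran at Lrrk1, a kinase gene known from bone resorption, and one of 4 members over 20600 bp lay within Sobp.

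The fourth comparison asked which genes members marked. A member touched a promoter window of 987 protein-coding genes, which is 4.50% of 21938. For 752 of them, or 3.43% (3.19 to 3.68), no window of the gene touched polymerase, and these are called member-only genes below. Among 13374 lncRNA genes 421 were of this kind, or 3.15% (2.86 to 3.46). For the 752 protein-coding genes the member covered the whole window in 387, its median width was 3600 bp, and 705 members stood behind them, since neighbouring genes can share 1 region. Of 9215 protein-coding genes with H3K27me3 at any window, the member-only genes were 8.16%. A gene was counted at any of its annotated starts, and the member named for a gene is that at its best-covered start. This can be a start inside the gene, as at Col6a6, Cdh18, Tph1, Sema3a and Cd6, whose named members touched neither end of the gene.

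Starts of the member-only genes were intermediate in CpG. The median CpG ratio of the window was 0.323 (0.314 to 0.335) in these 752 genes, 0.544 (0.537 to 0.551) in the 7557 protein-coding genes with H3K27me3 and polymerase outside members, 0.497 (0.489 to 0.506) in the 7675 with polymerase alone, and 0.144 (0.142 to 0.147) in the 5048 with no mark. A CpG-rich bin lay in the window of 46.4% (42.8 to 50.0) of the 752 genes, 80.4% of those with H3K27me3 and polymerase and 3.88% of those with no mark. A further 671 protein-coding genes had other H3K27me3 and no polymerase, with a median window ratio of 0.217 (0.210 to 0.224). Another 235 had both a member and polymerase at their starts, with 0.321 (0.301 to 0.347), among them the transcription factors Isl1, Foxc2 and Emx2.

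Counts for 26 gene lists were set beside the 3.43% of all protein-coding genes, with no set test. The largest shares were those of collagens, cadherins, germline genes, keratins and neurotransmitter receptors, and pluripotency, ribosomal protein and Hox genes had none. In 8 lists the interval lay wholly above 3.43% (collagens, cadherins, germline genes, keratins, neurotransmitter receptors, ion channels, solute carriers, and cytochromes P450 with UDP-glucuronosyltransferases), and in 2 wholly below it, the olfactory and the vomeronasal and trace amine receptors. Of these 8, solute carriers, germline genes and the cytochrome list lost this place under at least 1 of 4 other settings. The intervals were not adjusted for the number of lists, which were chosen with earlier results of these data known. Lists also differ in how often their genes are marked. Among genes with H3K27me3 at a window, the member-only share in these 8 lists ran from 9.80% (solute carriers) to 31.1% (keratins), beside 8.16% of all such protein-coding genes. Genes with polymerase at a start cannot be member-only, and they made up 70.5% of all protein-coding genes. Their share was 16.98% in keratins, 23.89% in the cytochrome list, 54.55% in collagens and 56.04% in cadherins. It was 65.66% in neurotransmitter receptors, 67.44% in germline genes, 71.43% in ion channels and 78.14% in solute carriers. Whether the lists differ from the background among genes without polymerase was not tested.

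**Figure D5:**
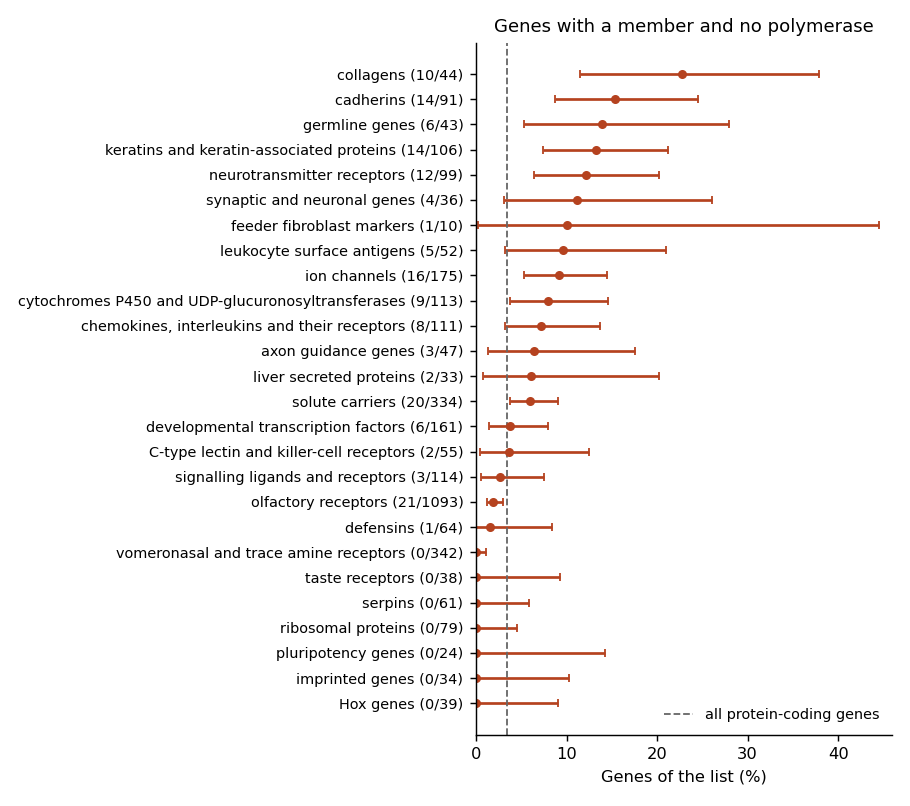
Share of the genes of each list (x axis, percent, with exact 95% intervals) that had a promoter window touched by a polymerase-free H3K27me3 region and no window touched by polymerase, with counts beside the list names. The dashed line is the share over all protein-coding genes, 3.43%, and collagens have the highest share, 22.7%.

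Of 44 collagen genes, which encode the fibres and sheets of the extracellular matrix, 10 were member-only genes (22.7%, 11.5 to 37.8), and 36 had H3K27me3 at a start. Col6a1, a chain of the collagen VI microfibrils around muscle cells, had its start in a member of 25.6 kb (chr10:76709200-76734799, score 7.83, polymerase 21.4 kb away). Its neighbour Col6a2 had a member of its own of 4.8 kb with a score of 10.9, and Col6a6 had one of 3.8 kb and 4 members along the gene. Col1a2, a chain of collagen I and a fibroblast marker, had a member of 3.6 kb with a score of 11.2, and polymerase was 93.6 kb away. Col14a1, a collagen of fibril surfaces, had a member of 9.0 kb. The CpG ratio of these windows ran from 0.215 at Col6a1 to 0.527 at Col14a1.

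Of 91 cadherin genes, adhesion molecules that join cells of a kind, 14 were member-only genes (15.4%, 8.67 to 24.5), beside 82 with H3K27me3. Cdh13, a cadherin anchored to the membrane by a lipid, had a member of 5.2 kb at its start (chr8:118280800-118285999, score 18.4), 8 members along its length, and polymerase 152.8 kb away. Cdh8, a cadherin of brain circuits, had one of 3.2 kb with a score of 22.0 and a window CpG ratio of 0.614, and Cdh18 one of 3.2 kb that was 257.6 kb from polymerase. Pcdh9, a protocadherin of neurons, had a member of 6.0 kb, and Pcdha11, of the clustered protocadherins that mark single neurons, had one of 3.8 kb with a score of 26.4 only 3.2 kb from polymerase. These members were narrow, unlike that of Col6a1.

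Among receptors for neurotransmitters 12 of 99 were member-only genes (12.1%, 6.42 to 20.2), with 79 marked by H3K27me3 at a start. They included receptors of both excitation and inhibition. Gria2, the AMPA receptor subunit that limits calcium entry, had a member of 3.2 kb with a score of 15.9 and polymerase 56.4 kb away. The GABA receptor subunits Gabrb2 and Gabra4 had members of 7.8 and 4.6 kb, with polymerase 232.6 and 39.6 kb away. Glra1, a glycine receptor subunit, had one of 5.8 kb, and Chrm1, a muscarinic acetylcholine receptor, one of 5.0 kb with a score of 13.6. The CpG ratio of the window was 0.192 at Chrm1 and between 0.490 and 0.561 at the other 4 genes.

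Ion channels gave 16 of 175 genes (9.14%, 5.32 to 14.4), with 141 marked by H3K27me3. Cacng5 and Cacng8, regulatory subunits of AMPA receptors and calcium channels, had members of 12 and 8.8 kb, with scores of 10.9 and 9.05. The potassium channel genes Kcnj8, Kcna4 and Kcnh5 had members of 9.4, 7.6 and 7.6 kb, with polymerase 53.8, 117.6 and 124.2 kb away. Of 36 synaptic and neuronal genes 4 were of this kind (11.1%, 3.11 to 26.1). Th, the rate-limiting enzyme of dopamine synthesis, lay in a member of 46.6 kb (chr7:142890600-142937199, score 10.6), and Tph1, which begins serotonin synthesis outside the brain, had one of 3.4 kb with a score of 15.6. The vesicle fusion genes Snap25 and Syt1 had members of 8.2 and 2.8 kb, and polymerase was 309.2 kb from the latter. Sema3a and Sema3d, secreted cues that repel axons, had members of 2.0 kb each, 282 and 204 kb from polymerase, while Robo3, a receptor of axons that cross the midline, lay in a member of 23.0 kb 2.6 kb from polymerase, and these were the 3 genes of 47 in axon guidance (6.38%, 1.34 to 17.5).

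Keratins and keratin-associated proteins, which build the filaments of epithelia, hair and nails, gave 14 of 106 genes (13.2%, 7.41 to 21.2) over 12 members, with H3K27me3 at 45. Krt27 and Krt28, keratins of the hair root sheath, shared a member of 30.2 kb with a score of 6.54. Krt73 lay in one of 25.8 kb, Krtap5-1 in one of 22.2 kb with a window CpG ratio of only 0.0533, and Krt14, a keratin of the basal epidermis, in one of 8.0 kb with a score of 10.7.

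Germline genes gave 6 of 43 (14%, 5.30 to 27.9), with 35 marked by H3K27me3. The share was 6.98% (1.46 to 19.1) with only H3K27me3 regions at or above the median score, beside 1.99% of all coding genes, and 9.30% (2.59 to 22.1) with 1 start per gene, beside 2.99%, so that neither interval lay above its background. Odf1, a protein of the sperm tail, lay in a member of 74.6 kb (chr15:38154200-38228799, score 6.14). Piwil1, which binds small RNAs that silence transposons in the testis, had an annotated start in one of 32.6 kb (chr5:128724000-128756599, score 6.74). Zp1, of the egg coat, had a member of 7.4 kb 2.0 kb from polymerase. Tex101, a sperm surface gene, and Nobox, a homeobox gene of oocytes, had members of 8.2 and 3.2 kb.

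Lists of blood, liver and detoxification genes held members at some starts. Leukocyte surface antigens gave 5 of 52 genes (9.62%, 3.20 to 21). Among them were the T-cell coreceptor Cd8a (member of 6.6 kb), Cd200r1 (4.4 kb), Cd6 (4.0 kb, score 12.1) and Cd48 (2.6 kb, score 13). Chemokines, interleukins and their receptors gave 8 of 111 (7.21%, 3.16 to 13.7), among them Il24 with a member of 12.8 kb and the neighbouring neutrophil chemokines Cxcl2, Cxcl3 and Cxcl5 with separate members of 5.6, 1.2 and 1.2 kb. Cytochromes P450 and UDP-glucuronosyltransferases gave 9 of 113 (7.96%, 3.71 to 14.6), with 31 marked by H3K27me3. The interval reached the background in 3 of 4 other settings, with 4.42% (1.45 to 10.02) at or above the median score, 6.19% (2.53 to 12.3) when the member had to cover 50% of the window and 7.08% (3.11 to 13.5) for regions whose central 75 bases occur once. The start of Cyp4f18 had a member of 12.6 kb and that of Cyp2a5, a liver enzyme, one of 1.8 kb that scored 24.4 and lay 124.2 kb from polymerase. Of 33 secreted liver proteins, the complement component C3 had an annotated start in a member of 40 kb and Apob, the protein of low-density lipoprotein, had one of 3.2 kb (6.06%, 0.743 to 20.2). C-type lectin and killer-cell receptors gave 2 of 55 genes (3.64%), Clec10a and Clec14a, and defensins 1 of 64, Defb11 (1.56%). Of 10 feeder fibroblast markers Col1a2 was the only one.

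Solute carriers, the transporters of ions and metabolites, gave 20 of 334 genes (5.99%, 3.70 to 9.10), a share that was 3.59% (1.87 to 6.19) with only H3K27me3 regions at or above the median score, beside 1.99% of all coding genes. Starts lay in members for Slc26a5, the motor protein of outer hair cells, in one of 38.2 kb, Slc6a21 in one of 33.0 kb, Slc24a1, an ion exchanger of rods, in one of 26.0 kb, Slc14a1, a urea transporter, in one of 24.6 kb, and Slc4a1, the anion exchanger of red cells, in one of 23.2 kb 1.0 kb from polymerase. Olfactory receptors gave 21 of 1093 genes (1.92%, 1.19 to 2.92) and only 40 had any H3K27me3 at a start, so that 52.5% of the marked ones had a member and no polymerase. With 1 start per gene the share of all olfactory receptors was 0.366%. Olfr462 and Olfr463 shared a member of 30 kb, and Olfr323, Olfr1359 and Olfr281 had members of 5.6, 2.0 and 1.4 kb. Olfr462 and Olfr463 were joined in that member by Epx, the peroxidase of eosinophils.

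Developmental transcription factors had H3K27me3 at a start in 161 of 161 genes and polymerase in 152, and 6 had a member and no polymerase (3.73%, 1.38 to 7.93). Pax6, the master gene of the eye and of parts of the forebrain and pancreas, had its starts touched by a member of 47.2 kb (chr2:105646600-105693799) with a score of 15.8, and the nearest polymerase region was 134.6 kb away. Alx1, a homeobox gene of the face, had a member of 10.8 kb 176.4 kb from polymerase. Myf5 and Myf6, which direct muscle formation, shared a member of 11.2 kb with a score of 5.74, and Meox2, a homeobox gene of somites, had one of 2.6 kb with a score of 19.8. The window CpG ratio was 0.660 at Alx1 and 0.591 at Pax6, above the median of the member-only genes. Signalling ligands and receptors gave 3 of 114 genes (2.63%, 0.546 to 7.5), with a member of 23.0 kb at Fgf6, one of 6.6 kb at Fgf2 (score 15.7) and one of 5.0 kb at Wnt2 (score 15.3).

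No member-only gene was found among 39 Hox genes, 34 imprinted genes, 24 pluripotency genes, 79 ribosomal protein genes, 61 serpins, 38 taste receptors and 342 vomeronasal and trace amine receptors. The first 4 of these lists had polymerase at a start in 92.3%, 97.1%, 100% and 98.7% of genes, so few of their genes could be counted. All 39 Hox genes had H3K27me3 at a start, and those without polymerase had it in regions that were no members. Vomeronasal and trace amine receptors had H3K27me3 at 0 starts and polymerase at 4. Counts of 0 allow shares of up to 9.03% of Hox genes and 1.07% of vomeronasal and trace amine receptors by the exact interval.

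Single members show both ends of the range. The widest, of 77.6 kb (chr2:28973400-29050999), touched the start of Cfap77, a gene of cilia, and lay 2.2 kb from polymerase with a score of 4.77. Others covered starts of Mobp, a myelin gene of oligodendrocytes (76 kb, score 6.95), Mpped1 and Efcab6 (74.4 kb) and Col15a1, a collagen of basement membranes (70 kb), or lay in the bodies of Myh11, the smooth muscle myosin (75.2 kb), and Trabd2b (73.8 kb). Cfap77, Mobp and Col15a1 also had polymerase at another start. The scores of the 10 widest members were between 4.59 and 6.95, apart from 13.6 in a member of 70.2 kb in Gm16092, whose central 75 bases occur 4 times. The highest scores belonged to narrow regions. The highest, 73.8, was that of a 5 kb member on chromosome 11 which began at the edge of the known sequence. The next was 73.2, in a 1.8 kb member on chromosome 9 that lay 237.2 kb from the end of the known sequence, and the third, 57.7, lay 0.4 kb from that edge on chromosome 6. Of the 10 members with the highest scores, 3 lay within 500 kb of an end of the known sequence, against 0.697% of all members. Only 1 of the 10 touched a promoter window, that of Dcdc2c, a doublecortin-domain gene (1.2 kb, score 38.1, CpG ratio 0.543).

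The genes that held the most members were mostly long. The 3 models Gm37013, Gm37388 and Gm42416, which overlap each other at the clustered protocadherins of chromosome 18, held the same count of 12. Zfhx3, a large homeobox and zinc finger gene of 1019 kb, held 10 members of 17 H3K27me3 regions. Fgfr2, a fibroblast growth factor receptor whose models span 2961 kb, held 9 of 22, Ctnna3, an alpha-catenin gene of 1574 kb, 8 of 10, and Cdh13, of 1041 kb, 8 of 10. Rbms3 held 7 of 9 over 1057 kb, whereas Sobp held 7 of 10 over only 172.0 kb and Lrrk1 6 of 7 over 161.4 kb. Long genes have more room for members, and no rate was compared. Among further genes with 6 members were Dmd, which encodes dystrophin, Plxna4, a receptor of semaphorins, Rbfox1, a neuronal splicing factor, Slit3 and Sox5. All of these except Cdh13, Rbms3 and Gm42416 had polymerase at a start, so their members lay in genes with polymerase elsewhere.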

How the data were processed

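Per the labels, single-end reads of 75 bp were aligned to mm10 (Bowtie2 2.3.4.3 in the submitters' processing notes), and the authors called regions per library with a Bayesian change-point peak finder in its histone mode. In the deposited lists the score has no stated unit and was compared only between regions of the same list. The scores of the polymerase lists were used only to cut each at its median in 1 alternative setting. Widths came as a value of other kind, in bp. No read counts were given, so depth is unknown. Overlap was counted from 1 bp. Genes (GENCODE M21) and soft-masked sequence were of the same build, GRCm38. Regions lie on a 200 bp grid. Intervals are exact Clopper-Pearson, or binomial order statistics for medians. Gene lists were matched by symbol, and genes were named by rule: those at the 10 widest or 10 highest-scoring members, and up to 5 per list by window cover. For CpG at starts, the window of a gene with most cover by members, then by H3K27me3 and Pol2-S5p, was used. Genes with most members inside, the longest chains, genes with both a member and polymerase, those at the widest regions and Epx were named after their values were seen. Members and lists were chosen with earlier results of these data known. Some genes that met the rule are not reported here. Functions were tested on simulated data. Python 3.11.15, NumPy 2.4.6 and SciPy 1.17.1 were used.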

Additional observations from a re-analysis of the deposited data

How the results depend on the processing

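Of 58 alternative settings of the main values, 19 stayed within the interval of the main value (or within 1.5 times a count) and 39 moved. Among the settings that changed the values compared, members kept the lower CpG ratio in 9 of 9, the smaller share at promoters in 12 of 12 and with a CpG-rich bin in 9 of 9, and the larger share between genes in 12 of 12 and of repeats in 9 of 9, against all regions touching polymerase. With only polymerase regions at or above their median score, members became 63.7% of H3K27me3 regions (38.1% otherwise), 29.4% of them touched a promoter window, the CpG ratio was 0.255, the distance 60200 bp and the genes touched 4011 (1433 otherwise). With only H3K27me3 regions at or above their median score these values were 25.5%, 28.1%, 0.298, 29400 bp and 705, with 44.5% between genes, 47.1% with a CpG-rich bin, 19.8% masked and 5 gene lists with an interval above the background in place of 8. With H3K27me3 regions of at least 1000 bp they were 34.8%, 22.6%, 49.6% between genes, 0.248, 37.6% and 22.7%. A polymerase cover of at least 10% gave 42.5% members. Windows of 1 and 5 kb gave 18% and 23.2% at promoters, and protein-coding genes alone 14.7%, with 60.8% between genes. The central 200 bp gave a CpG ratio of 0.222 and 21% masked, the stricter CpG limits 14.7% with a rich bin, and chain gaps of 1 and 10 kb 3.92% and 18.5% chained to polymerase. Alternatives chosen after seeing the data were the autosomes alone (20.4% at promoters, 49.5% between genes, 0.246, 33.1% with a rich bin, 22% masked), regions whose central 75 bases occur once (22.2%, 47.5%, 20.7% masked) and 1 start per gene (14.2% at promoters). Of 104 settings of single gene lists 99 stayed within the interval. Over all 104, the place above the background was lost by cytochromes in 3 of 4 settings, by germline genes in 2 and by solute carriers in 1, and gained by synaptic genes (50% window cover) and leukocyte antigens (central bases once) in 1 each. No paired analysis was possible because each mark had 1 library. Library depth was not in the files and limits all calls.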

Other observations

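Short motifs were counted on both strands in the central 200 bp of each region. CGCG, a marker of dense CpG, was present in 6.66% (6.07 to 7.29) of members, 16.7% (16 to 17.5) of regions touching polymerase and 2.11% of all 200 bp bins of the chromosomes. At promoter windows the shares were 11.9% (10.2 to 13.9) and 23.0% (21.9 to 24), and between genes 5.53% (4.79 to 6.35) and 6.92% (5.95 to 8.0). CACACACA was present in 5.42% (4.89 to 5.99) of members, 6.10% (5.64 to 6.59) of regions touching polymerase and 6.04% of all bins. GAGAGAGA was present in 4.0% (3.54 to 4.50), 3.47% (3.12 to 3.84) and 3.52%. CGCG is its own reverse complement, and the motifs do not overlap each other.

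The 14 polymerase-free regions over the width limit are given here for the genes whose starts they touched. One of 109.6 kb on chromosome 15 touched starts of the keratin genes Krt75, Krt82, Krt83, Krt84, Krt86 and Krt90. Others touched Kif1a, a motor protein of axons (83.2 kb, chromosome 1), Smoc2, a matrix protein (90.6 kb, chromosome 17), and Mylk, the myosin light chain kinase of smooth muscle (111.4 kb, chromosome 16). The widest, of 285.4 kb on chromosome 1, had a score of 18.2, and one of 145.8 kb on chromosome 6 without a gene had a score of 59.4. The other 12 had scores between 4.52 and 6.96. None of these regions are members.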
